A study of Mus musculus with 12 samples.

Results

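Inflammasomes are protein assemblies that macrophages build in the cytosol when they detect microbes or damage, and pyroptosis is the lytic cell death that follows. The 10 genes described here encode 5 sensors (Nlrp3, Nlrp1b, Nlrc4, Aim2 and Naip5), the adaptor ASC (Pycard), 3 caspases (Casp1, Casp4 and Casp8) and the pore protein gasdermin D (Gsdmd). They were chosen by symbol from the 23997 gene names of the series, all 10 were found, and all 10 passed the filter on low values. RNA-seq measured the polyadenylated RNA of bone marrow-derived macrophages (BMDMs) in 12 libraries, 3 in each of 4 groups, which were WT untreated, Pim1-/- untreated, WT with LPS and Pim1-/- with LPS.

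All mice were C57BL/6 males aged 8 to 10 weeks, and all BMDMs, controls included, were grown with recombinant human macrophage colony-stimulating factor at 10 ng/ml for 7 days. LPS is the bacterial cell wall component that Toll-like receptor 4 detects, and it was given at 100 ng/ml for 4 h. The Pim1-/- mice carry a germline CRISPR-Cas9 deletion of exons I to V of Pim1, a serine/threonine kinase gene, so that the deletion is not limited to macrophages. Neither the labels nor the methods state whether the 3 libraries of a group came from separate mice, so p-values measure the spread between these libraries, which may be technical. Protein, caspase cleavage and cell death were not measured in these libraries.

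In the standard account, a first signal such as LPS raises the RNA of sensors and substrates, and a second signal then makes the sensor assemble. NLRP3, NLRP1B and AIM2 assemble ASC into filaments that activate caspase-1, NAIP5 binds bacterial flagellin and engages NLRC4, and mouse caspase-11, the product of Casp4, binds LPS in the cytosol directly. Caspase-1 and caspase-11 cut gasdermin D, whose amino-terminal part forms pores in the plasma membrane, while caspase-1 also matures interleukin-1β and interleukin-18. Caspase-8 drives apoptosis, holds back necroptosis and can also cut gasdermin D.

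Pim1 itself, the targeted gene, was at 25.0, 21.5 and 22.3 FPKM (fragments scaled to the length of the transcript and to the size of the library) in untreated WT libraries and at 8.70, 8.00 and 9.51 FPKM in untreated Pim1-/- libraries. After LPS it was between 630.2 and 665.0 FPKM in WT and between 205.0 and 235.8 FPKM in Pim1-/- libraries. The mean in Pim1-/- libraries was thus 38.1% of WT without treatment and 33.9% of WT after LPS, and the genotypes did not overlap, but the RNA was not absent. Which exons these fragments came from was not analysed here. All 8 macrophage markers were at 1 FPKM or more in each group, while their summed level was 27853 to 29901 FPKM in untreated WT, 14378 to 15297 in untreated Pim1-/-, 30804 to 31298 in LPS-treated WT and 15921 to 17784 in LPS-treated Pim1-/- libraries. Most of that sum is Lyz2, the lysozyme gene, at 26302 and 13297 FPKM (means of untreated WT and Pim1-/-), and Csf1r, the receptor for the growth factor, was at 763.8 and 254.3 FPKM. The markers were not lower to the same degree, since in the same groups Cd68 was at 1161 and 956 FPKM and Cd14 at 167.5 and 160.3 FPKM. Of 7 neutrophil markers S100a8 was at 1.29 to 3.85 FPKM by group mean and S100a9 reached 3.07 FPKM in LPS-treated WT cells, and the other 5 stayed below 1 FPKM in each group. Of 4 T and NK cell markers only Lck exceeded 1 FPKM, at 15.2 FPKM in LPS-treated WT and 6.10 FPKM in LPS-treated Pim1-/- cells. Dcn, a stromal marker, was at 1.69 FPKM in LPS-treated WT cells, Ccr7, a marker of mature dendritic cells, reached 1.04 FPKM in 1 library of LPS-treated Pim1-/- cells, and no B cell, mast cell or erythroid marker had a group mean of 1 FPKM. The lower macrophage marker sum moved with the Pim1-/- genotype, and its part in the genotype differences given here was not tested. In bulk RNA, fewer cells that express a gene and less RNA per cell cannot be told apart.

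The upstream sequences of 3 members are shown because their RNA behaved most differently, Nlrp3 and Casp4 rising most with LPS and Pycard being higher with LPS in WT and lower in Pim1-/- cells. They come from the RefSeq promoter table (GRCm38.p6), which matched 9 of the 10 members and not Gsdmd, are read 5′ to 3′ on the gene's strand and end before the first transcribed base of either the RefSeq or the GENCODE M21 annotation. Capitals mark matches to the NF-kappaB motif GGGNNNNNCC on either strand. The coordinates are chr11:59541319-59541567 (+ strand) for Nlrp3, chr9:5308599-5308827 (+ strand) for Casp4 and chr7:127993868-127994117 (− strand) for Pycard.
Nlrp3: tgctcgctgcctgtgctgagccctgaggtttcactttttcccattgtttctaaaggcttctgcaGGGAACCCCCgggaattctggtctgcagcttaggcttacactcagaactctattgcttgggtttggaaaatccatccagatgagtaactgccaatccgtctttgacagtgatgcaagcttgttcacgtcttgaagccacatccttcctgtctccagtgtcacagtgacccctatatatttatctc
Casp4: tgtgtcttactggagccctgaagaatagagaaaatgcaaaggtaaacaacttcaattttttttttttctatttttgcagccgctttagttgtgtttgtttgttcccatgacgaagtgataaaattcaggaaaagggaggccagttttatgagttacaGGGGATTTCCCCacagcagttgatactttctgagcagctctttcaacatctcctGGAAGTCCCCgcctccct
Pycard: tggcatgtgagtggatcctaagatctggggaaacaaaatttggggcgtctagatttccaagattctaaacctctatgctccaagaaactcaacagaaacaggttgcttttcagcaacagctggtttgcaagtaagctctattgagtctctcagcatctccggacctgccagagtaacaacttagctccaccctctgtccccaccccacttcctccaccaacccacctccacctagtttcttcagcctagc
The Casp4 stretch held 5 matches, which merge into 2 runs because 4 of them overlap, and the Nlrp3 stretch held 2 matches on opposite strands of the same run. The Pycard stretch held none. The 9 members had 12 windows of 250 bases before a RefSeq start, since Casp4, Nlrp1b and Nlrp3 had more than 1. At least 1 match was found in 4 of the 9 members (Casp1, Casp4, Naip5 and Nlrp3). The second Nlrp3 window (chr11:59542436-59542685), which is not printed, held no match. Of all 32851 RefSeq promoter windows 45.8% held a match, so that a single match sets no gene apart. That share is per window, while the count of 4 is per member. The interferon-stimulated response element, searched as GAAANNGAAA on both strands, was in 2.98% of all windows and in none of the members' windows. A match here is a run of letters and not a measured binding site.

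**Figure D1:**
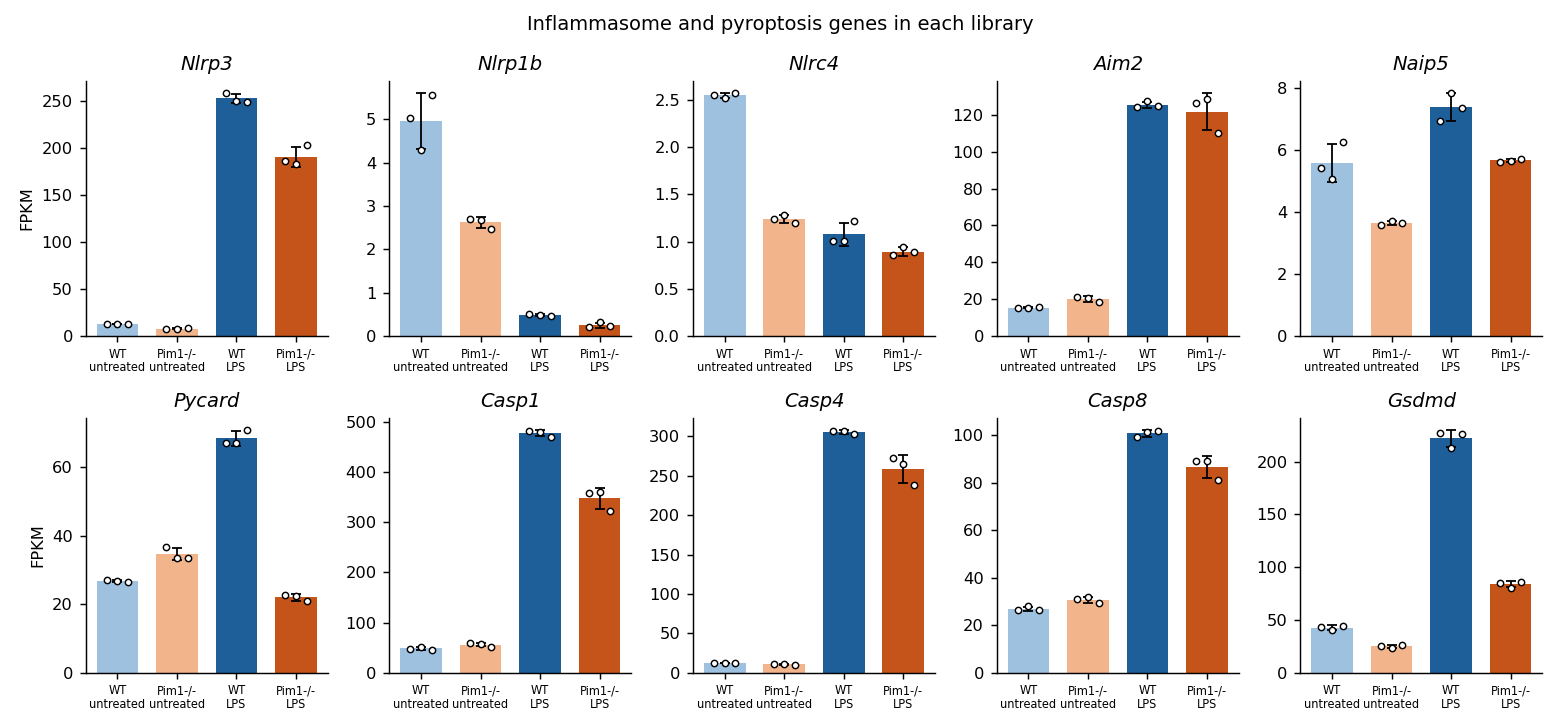
Level of each gene in FPKM (linear axes that start at 0 and differ between panels) in the 4 groups. Bars are means, error bars are SD over 3 libraries and circles are single libraries. Pycard is highest in LPS-treated WT cells, at 67.1 to 71.0 FPKM, and lowest in LPS-treated Pim1-/- cells, at 20.8 to 22.7 FPKM, while Nlrp1b and Nlrc4 are highest in untreated WT cells.

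In untreated WT BMDMs, Casp1 had the highest mean level of the 10 genes at 48.2 ± 2.7 FPKM (SD, n = 3), followed by Gsdmd at 42.7 ± 2.1, Casp8 at 26.9 ± 0.88 and Pycard at 26.8 ± 0.29 FPKM. Casp8 and Pycard overlapped in that order. Aim2, Nlrp3 and Casp4 lay between 12.6 and 15.2 FPKM, and Naip5, Nlrp1b and Nlrc4 between 2.55 and 5.57 FPKM. After LPS the order in WT cells became Casp1 at 478.1 FPKM, Casp4 at 305.8 FPKM, Nlrp3 at 252.3 FPKM and Gsdmd at 222.2 FPKM, so that Casp4 and Nlrp3 stood above the adaptor, which was at 68.4 FPKM. FPKM is scaled to transcript length, but the annotation and so the lengths used are not stated. The order of the genes, and of sensors against the adaptor, depends on those lengths.

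The response to LPS was tested with limma on log2(FPKM + 1) over all 10581 genes that passed the filter, and a gene was called changed where it moved by more than 2-fold with p below 0.05 and a false discovery rate (FDR, Benjamini-Hochberg) below 0.1. In WT cells LPS raised 7 of the 10 genes and lowered 1, against 20.1% and 14.7% of all genes tested. Among the Pim1-/- libraries it raised 6 and lowered 1, against 14.6% and 10.4% of all genes. The median log2 fold change of the 10 genes was 2.11 in WT and 1.58 in Pim1-/- cells, where the median over all genes was 0.00 and −0.01. Both LPS comparisons have their own untreated libraries, so neither shares samples with the other.

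Among the sensors Nlrp3 rose most. It was at 12.5, 12.7 and 12.8 FPKM in untreated WT libraries and at 257.88, 249.96 and 248.98 FPKM after LPS. The mean was 19.9 times as high, and the log2 fold change was 4.21 ± 0.05 (SE; FDR = 7.5e-20). Pim1-/- cells started lower in Nlrp3, at 7.66, 7.44 and 8.22 FPKM, and reached 186.0, 182.8 and 202.4 FPKM, 24.5 times the untreated mean. All LPS libraries stood above all untreated ones, and within each treatment the WT libraries lay above the Pim1-/- ones.

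Aim2, the sensor of double-stranded DNA in the cytosol, went from 15.3, 14.9 and 15.5 FPKM to 124.3, 127.4 and 125.1 FPKM in WT cells. Its Pim1-/- values went from 21.2, 20.6 and 18.4 FPKM to 126.6, 128.4 and 110.2 FPKM. The genotypes were separate before LPS, with Pim1-/- higher, and overlapped after it. Its rise was 8.25 times in WT and 6.07 times in Pim1-/- cells by the means, with log2 fold changes of 2.96 ± 0.06 and 2.54 ± 0.06 (SE).

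Nlrp1b, another sensor, moved the other way. It was at 5.04, 4.28 and 5.56 FPKM in untreated WT and 0.51, 0.48 and 0.46 FPKM in LPS-treated WT libraries, and at 2.71, 2.69 and 2.46 FPKM and 0.20, 0.31 and 0.23 FPKM in Pim1-/- libraries. LPS left 9.71% of the untreated level in WT and 9.40% in Pim1-/- cells. On the log2(FPKM + 1) scale, which compresses such low levels, the log2 fold changes were −2.003 ± 0.07 and −1.54 ± 0.07 (SE), and Nlrp1b was the only member called lower with LPS in either genotype. About 25 fragments lay behind its lowest value.

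Nlrc4 and Naip5, partners in flagellin detection, stayed within 2-fold at the added constant of 1. Nlrc4 was at 2.56, 2.52 and 2.57 FPKM in untreated and at 1.01, 1.01 and 1.22 FPKM in LPS-treated WT libraries, with a log2 fold change of −0.77 ± 0.05 (SE) that became −1.17 and passed the 2-fold rule when 0.1 was added in place of 1. In Pim1-/- libraries Nlrc4 was at 1.24, 1.28 and 1.20 FPKM and then at 0.85, 0.94 and 0.89 FPKM, with a log2 fold change of −0.24 that became 0.00 under quantile normalization. Naip5 was at 5.42, 5.05 and 6.23 FPKM and at 6.92, 7.82 and 7.35 FPKM in WT, and at 3.58, 3.72 and 3.65 FPKM and then 5.603, 5.64 and 5.72 FPKM in Pim1-/- libraries. These values may hold reads of close copies, since 36.8% of the 50-base words of its transcript also occur in other genes and 22.3% in Naip6.

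Pycard (chr7:127989708-127993867, − strand, GENCODE M21 on GRCm38) was higher with LPS in WT and lower with LPS in Pim1-/- cells. The annotated gene Gm45205 overlaps it on the other strand, and the counting by strand is not stated, so reads of the pair cannot be told apart. In WT cells it went from 27.1, 26.9 and 26.5 FPKM to 67.3, 67.1 and 71.0 FPKM, 2.55 times the untreated mean, with a log2 fold change of 1.32 ± 0.05 (SE; FDR = 1.7e-13). In Pim1-/- cells it went from 36.6, 33.6 and 33.6 FPKM to 22.7, 22.5 and 20.8 FPKM, 63.6% of the untreated mean. That change, −0.63 ± 0.05 (SE; FDR = 3.4e-09) on the log2 scale, was smaller than 2-fold and was not called. The 4 groups did not overlap, and their order was Pim1-/- with LPS, WT untreated, Pim1-/- untreated and WT with LPS. Quantile normalization, which forces the libraries to 1 distribution and moved the median of all genes to −0.17 in WT and −0.18 in Pim1-/- cells, gave 0.61 and −1.08, so that the opposite signs held and the 2-fold call passed from WT to Pim1-/- cells.

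All 3 caspases rose in both genotypes. Casp1 went from 48.04, 51.0 and 45.5 FPKM to 483.3, 480.2 and 470.9 FPKM in WT, 9.92 times the untreated mean, and from 59.3, 56.9 and 51.9 FPKM to 359.4, 360.1 and 323.4 FPKM in Pim1-/- cells, 6.20 times the untreated mean. Casp4 went from 12.6, 12.8 and 12.4 FPKM to 307.2, 307.3 and 302.9 FPKM in WT, 24.3 times the untreated mean. In Pim1-/- cells Casp4 went from 11.2, 10.5 and 9.14 FPKM to 272.3, 264.5 and 238.4 FPKM, 25.1 times the untreated mean. Casp4 thus had the largest log2 fold change of the 10 genes in both genotypes, 4.50 ± 0.06 and 4.52 ± 0.06 (SE), although in Pim1-/- cells its 95% confidence interval (4.39 to 4.65) overlapped that of Nlrp3 (4.35 to 4.55). Casp8 rose less, from 26.3, 27.9 and 26.5 FPKM to 99.2, 101.6 and 101.8 FPKM in WT and from 31.0, 31.8 and 29.4 FPKM to 89.4, 89.1 and 81.1 FPKM in Pim1-/- cells. Its log2 fold change in Pim1-/- cells, 1.46 ± 0.05 (SE), was 0.86 and no longer past 2-fold under quantile normalization.

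Gsdmd (chr15:75862327-75867408, + strand) has no overlapping annotated gene. It went from 43.1, 40.4 and 44.5 FPKM to 227.0, 212.9 and 226.5 FPKM in WT cells. The Pim1-/- libraries went from 25.4, 23.5 and 26.1 FPKM to 84.8, 80.7 and 85.7 FPKM. The rise was 5.21 times in WT and 3.35 times in Pim1-/- cells, with log2 fold changes of 2.35 ± 0.05 and 1.71 ± 0.05 (SE). The Pim1-/- libraries were the lower ones before and after LPS, with no overlap. Besides Pycard, annotated genes overlap Aim2 on the other strand (Cadm3) and Nlrc4 and Casp8 on the same strand (CT033749.1 and Gm37760). Reads of these pairs may be mixed.

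**Figure D2:**
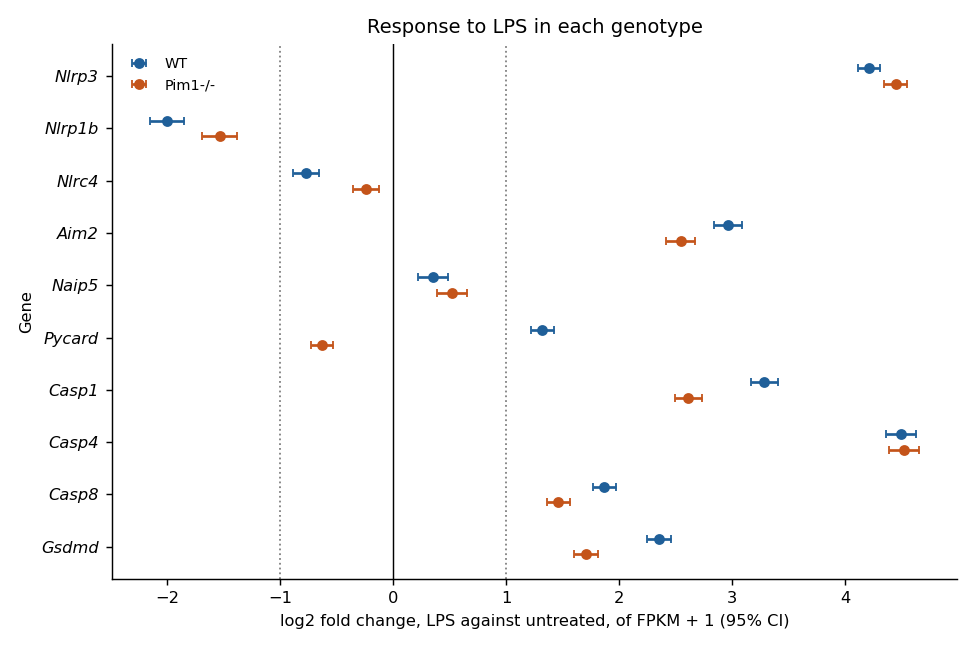
Response to LPS of each gene in WT and Pim1-/- cells, as the log2 fold change of FPKM + 1 with its 95% confidence interval from limma. Dotted lines mark 2-fold. Nlrp3 and Casp4 lie beyond 4 in both genotypes, Nlrp1b lies below −1, and Pycard lies at 1.32 in WT and −0.63 in Pim1-/- cells.

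Comparing the genotypes after LPS asks whether the 10 genes differ in stimulated cells that carry the Pim1 deletion. It shares its libraries with the LPS responses above. Pycard and Gsdmd were the 2 members called lower in Pim1-/- cells and none was called higher, against 5.15% and 3.51% of all genes tested. Pycard was at 32.1% of the WT mean, with a log2 fold change of −1.60 (95% CI −1.70 to −1.50; FDR = 1.8e-13), and Gsdmd at 37.7%, with −1.40 (95% CI −1.50 to −1.29; FDR = 1.5e-12). With the fold threshold dropped, at an FDR below 0.05, 9 of the 10 were lower and none higher, where 41.7% of all genes were lower and 35.7% higher. Quantile normalization left 6 lower and made 1, Aim2, higher at that FDR. The genotypes did not overlap for 9 of the 10, against 77.5% of all genes, and the median log2 fold change was −0.29, against −0.03 over all genes.

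The 8 other members stayed within 2-fold after LPS. Nlrp3 was at 75.5% of the WT mean, with a log2 fold change of −0.41 ± 0.05 (SE), Casp1 at 72.7%, with −0.46 ± 0.06, and Naip5 at 76.8%, with −0.33 ± 0.06. Casp4 and Casp8 were at 84.5% and 85.8%, with −0.24 ± 0.06 and −0.22 ± 0.05 (SE), and under quantile normalization these became 0.04 and 0.02, Casp1 became −0.11 and Nlrp3 became −0.14. Aim2 was at 96.9% of the WT mean, with −0.05 (95% CI −0.17 to 0.08; FDR = 0.47 with limma), which turned to 0.02 without LPS-treated Pim1-/- replicate 3 and to 0.21 (FDR = 0.0041 with limma) under quantile normalization. Nlrc4 had −0.13 ± 0.05 (SE; FDR = 0.037 with limma), and the FDR rose to 0.18 without LPS-treated WT replicate 3, to 0.10 without LPS-treated Pim1-/- replicate 1 and to 0.069 without LPS-treated Pim1-/- replicate 3. Nlrp1b was at 51.1% of the WT mean, at levels below 1 FPKM in both genotypes, and its log2 fold change was −0.25 with 1 added and −0.76 with 0.1 added.

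In untreated cells the question is whether the genotypes already differed. No member was called, against 3.37% of all genes called lower and 4.4% called higher in Pim1-/- cells. With an FDR below 0.05 in limma as the sole criterion all 10 differed, 6 lower and 4 higher, where 42.0% of all genes were lower and 32.7% higher. The genotypes did not overlap for any of the 10, against 78.4% of all genes. The 6 lower genes were 4 sensors, Casp4 and Gsdmd. Nlrc4 was at 48.5% of the WT mean, Nlrp1b at 52.8%, Gsdmd at 58.6%, Nlrp3 at 61.4%, Naip5 at 65.5% and Casp4 at 81.8%. The 4 higher genes were Aim2 at 131.7% of the WT mean, Pycard at 128.9%, Casp1 at 116.3% and Casp8 at 114.3%. By its means Nlrc4 was past 2-fold, but on the log2(FPKM + 1) scale its fold change was −0.67 ± 0.05 (SE), and −0.99 with 0.1 added.

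**Figure D3:**
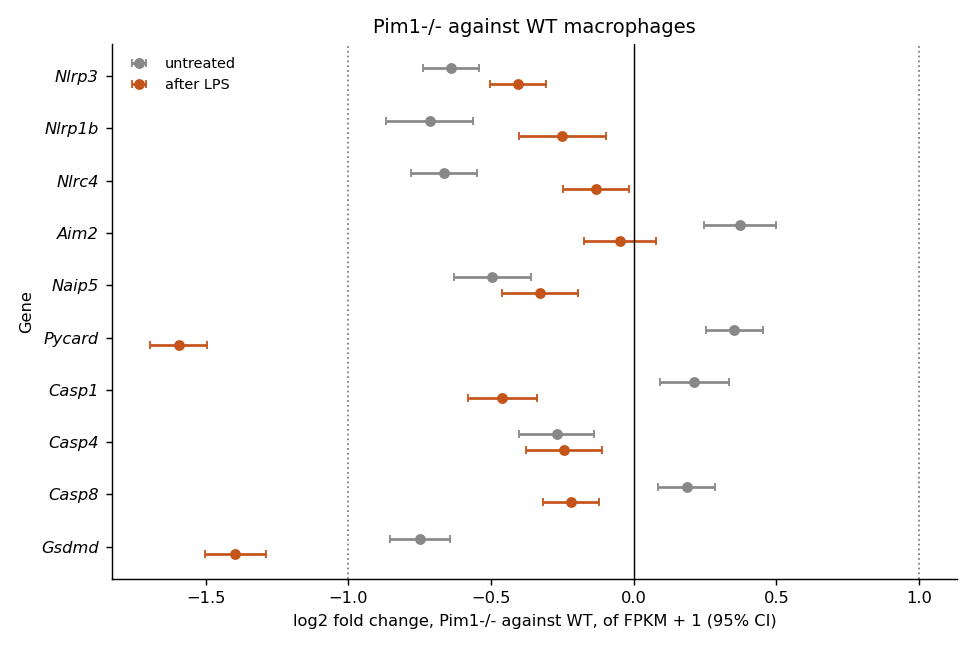
Difference between Pim1-/- and WT cells for each gene, untreated and after LPS, as the log2 fold change of FPKM + 1 with its 95% confidence interval from limma. Dotted lines mark 2-fold. After LPS only Pycard, at −1.60, and Gsdmd, at −1.40, lie beyond 2-fold, and Aim2, Pycard, Casp1 and Casp8 lie above 0 in untreated cells and below 0 after LPS (Aim2 and Casp8 not under quantile normalization).

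The LPS response itself was compared between genotypes with an interaction term. Only Pycard was called, lower in Pim1-/- cells with a difference of −1.95 (95% CI −2.09 to −1.81; FDR = 5.8e-12), and none was called higher, against 4.43% and 2.24% of all genes. By that FDR alone 5 of the 10 responded less positively in Pim1-/- cells and 3 more positively, where 33.3% and 29.6% of all genes did. The other 4 with a smaller response were Casp1, with −0.67 ± 0.08, Gsdmd, with −0.65 ± 0.07, Aim2, with −0.42 ± 0.08, and Casp8, with −0.41 ± 0.07 (log2, SE). Under quantile normalization these 4 were −0.38, −0.22, −0.26 and −0.25, each still at an FDR below 0.05. Nlrp3 had 0.23 ± 0.07 (0.58 under quantile normalization), Nlrc4 0.53 ± 0.08 and Nlrp1b 0.46 ± 0.10 (log2, SE). For Nlrp1b the difference became 0.13 ± 0.18 with 0.1 added in place of 1, and the shares of its level left by LPS were close in the genotypes, as given above. Casp4 had 0.03 (95% CI −0.16 to 0.21; FDR = 0.81 with limma), −0.05 without untreated Pim1-/- replicate 3, −0.01 without LPS-treated Pim1-/- replicate 1 and 0.31 under quantile normalization. Naip5 had 0.17 (95% CI −0.02 to 0.36; FDR = 0.12 with limma).

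The balance of adaptor, sensors and caspase within a library does not depend on a linear scaling of the libraries. The ratio of Pycard to Casp1 levels was 0.558 ± 0.028 (SD, n = 3) in untreated WT and 0.618 ± 0.028 in untreated Pim1-/- cells, and it was 0.143 ± 0.006 and 0.063 ± 0.001 after LPS. The ratio of Nlrp3 to Pycard was 0.472 ± 0.012 and 0.225 ± 0.018 without treatment and 3.69 ± 0.17 and 8.69 ± 0.90 after LPS, in WT and Pim1-/- cells. The genotype with less Nlrp3 RNA per Pycard RNA before LPS was thus the one with more after it, and no library of one genotype lay within the range of the other. For Aim2 the ratio to Pycard was 0.567 ± 0.015 and 0.579 ± 0.033 without treatment, with the genotypes overlapping, and 1.84 ± 0.07 and 5.53 ± 0.21 after LPS, so that no such reversal was seen. The ratio of Casp4 to Casp1 was 0.262 ± 0.011 and 0.184 ± 0.007 without treatment and 0.640 ± 0.004 and 0.743 ± 0.013 after LPS. These ratios are descriptions, with no test.

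The pattern over the 12 libraries was compared with that of 7285 other tested genes that averaged 5 FPKM or more. Closest to Nlrp3 on log2(FPKM + 1) were Atf3, Nfkbia and Gbp5, each with Pearson's r of 1.00 (0.9998, 0.9998 and 0.9997), and closest to Casp4 were Il15, Ccl9 and Zufsp (0.9998, 0.9997 and 0.9996). The points share their libraries and fall into untreated and LPS-treated ones, so r is set mostly by the rise with LPS. Among the members above that level, Casp1 and Casp8 had r of 1.00 (0.999), Nlrp3 and Casp4 0.997, and Pycard had at most 0.599 with any other, which was Gsdmd.

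Around the 10 genes, 46 others of the pathway were grouped in 6 lists, and 43 of them passed the filter on low values, Naip1, Nlrp6 and Nlrp12 being too low. After LPS 6 of the 43 were called between genotypes, 3 lower and 3 higher in Pim1-/- cells, and in untreated cells 8 were called, 7 lower and 1 higher. LPS called 23 in WT cells, 19 of them higher, and 25 in Pim1-/- cells, 21 of them higher. By the interaction term 6 were called, of which 3 were lower and 3 higher in Pim1-/- cells, and this count depends on the settings, with 3 lower and 9 higher when 0.1 was added in place of 1 and 2 lower and 5 higher under quantile normalization. The background shares of all genes are those given for the members.

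Of the 5 other sensors tested, Mefv, which encodes pyrin, was the one called in any comparison. It was at 0.09 FPKM in untreated and 7.99 FPKM in LPS-treated WT cells, and at 0.02 and 1.35 FPKM in Pim1-/- cells (means, n = 3). After LPS its log2 fold change between genotypes was −1.93 ± 0.05 (SE; FDR = 8.3e-14), and the difference in LPS response was −1.84 ± 0.08. The untreated levels are near 0, so the size of the latter depends on the added 1. By the means LPS raised Mefv 87.2 times in WT and 57.3 times in Pim1-/- cells. Its mean in Pim1-/- cells was 25.7% of WT untreated and 16.9% after LPS. Naip2, which recognises rod proteins of bacterial secretion systems, was at 19.5 and 20.3 FPKM after LPS in WT and Pim1-/- cells, with a log2 fold change of 0.05 ± 0.06 (FDR = 0.47 with limma).

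Of the 11 genes for activation and licensing of NLRP3, Nek7, the kinase that NLRP3 needs to assemble, was called higher in Pim1-/- cells after LPS, at 96.1 against 46.0 FPKM. Its log2 fold change was 1.05 ± 0.06 (SE; FDR = 3.2e-10). Txnip, a thioredoxin-binding protein, was lower in untreated Pim1-/- cells, at 85.2 against 336.6 FPKM, with −1.97 ± 0.04, and LPS brought it to 41.4 and 47.3 FPKM, so that the difference in response was 1.79 ± 0.06 (SE). LPS lowered Txnip, Ptpn22 and P2rx7, the receptor for extracellular ATP, in both genotypes. P2rx7 went from 24.0 to 5.66 FPKM in WT and from 12.2 to 4.85 FPKM in Pim1-/- cells. In Pim1-/- cells Panx1, a channel gene, was also called lower with LPS, with −1.26 ± 0.07, and Nek7 higher, with 1.179 ± 0.06 (SE). In WT cells Panx1 had −0.87 ± 0.07 and Nek7 0.38 ± 0.06, neither called, and Nek7 became −0.30 under quantile normalization.

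All 6 interferon-inducible GTPases listed for their roles at bacterial membranes, or in Irgm1 as a regulator of related GTPases, rose with LPS in both genotypes, with medians of 6.88 in WT and 7.89 in Pim1-/- cells on the log2 scale. In untreated cells 4 of the 6 (Gbp2, Gbp3, Gbp5 and Gbp7) were called lower in Pim1-/- cells, with log2 fold changes of FPKM + 1 between −1.36 and −1.24. Their levels are low and the added 1 brings these values together, since by the means they were at 34.6%, 24.1%, 8.35% and 16.9% of WT, Gbp5 being at 0.15 against 1.80 FPKM. After LPS Gbp5 alone of the 6, at 696.1 against 1396 FPKM, was called between genotypes, with −1.003 ± 0.04 (SE; FDR = 5.4e-12). The response of Gbp3 and Gbp7 was larger in Pim1-/- cells by 1.31 ± 0.08 and 1.16 ± 0.08 (log2, SE), from untreated levels of 0.99 and 0.42 FPKM there. Gbp2, Irgb10 and Gbp5 had 0.82 ± 0.08, 0.70 ± 0.08 and 0.28 ± 0.06, which were not called, and Irgm1 had 0.08 ± 0.06. For Gbp5 the added 1 shrinks this value, since by the means it rose 777.4 times in WT and 4641 times in Pim1-/- cells.

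Of the 5 substrate, pore and rupture genes, Il1b rose from 0.96 to 8515 FPKM in WT and from 0.14 to 4436 FPKM in Pim1-/- cells. After LPS its log2 fold change between genotypes was −0.94 ± 0.09 (SE; FDR = 2.1e-07), short of 2-fold. Il18, the other cytokine that caspase-1 matures, rose from 7.83 to 117.8 FPKM and from 7.24 to 116.6 FPKM, and the genotypes differed after LPS by −0.01 ± 0.09 (FDR = 0.89 with limma), or 0.24 under quantile normalization. Il1a rose in both genotypes as well. Gsdme, a second gasdermin gene, was called higher in Pim1-/- cells after LPS, at 3.53 against 1.06 FPKM, with 1.14 ± 0.09 (SE; FDR = 2.1e-08), while Gsdmd was lower. Ninj1, which encodes the membrane rupture protein ninjurin-1, was called higher with LPS in Pim1-/- cells, with 1.22 ± 0.05, and had 0.68 ± 0.05 in WT cells, or −0.54 under quantile normalization (log2, SE).

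Of the 11 genes of the caspase-8 complex and necroptosis, the same 6 (Mlkl, Cflar, Zbp1, Xiap, Birc2 and Birc3) rose with LPS in both genotypes and none was called lower. Fadd, the adaptor of caspase-8, was at 5.89 and 2.59 FPKM in untreated and LPS-treated WT cells, with −0.94 ± 0.06 (log2, SE; FDR = 5.6e-10), and at 5.61 and 2.85 FPKM in Pim1-/- cells, with −0.78 ± 0.06. No gene of this list was called between genotypes after LPS. The response of Mlkl, the executioner of necroptosis, differed by −1.0003 ± 0.08 (SE). In untreated cells Zbp1, a sensor of Z-form nucleic acids, and Birc3, a ubiquitin ligase, were called lower in Pim1-/- cells, with −1.63 ± 0.08 and −1.10 ± 0.05 (log2, SE).

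Of the 5 brakes, Il1rn, the interleukin-1 receptor antagonist, was at 710.1 FPKM in LPS-treated WT and 179.9 FPKM in LPS-treated Pim1-/- cells. Its log2 fold change was −1.98 ± 0.05 (SE; FDR = 2.7e-14), and the response differed by −2.02 ± 0.07. Serpinb1a, a protease inhibitor that restrains caspase-1 activation, was higher in Pim1-/- cells, at 5.97 against 0.63 FPKM untreated and 2.85 against 0.27 FPKM after LPS, with 2.10 ± 0.09 and 1.59 ± 0.09 (log2, SE). Il1rn, Trim30a and Tnfaip3 rose with LPS in both genotypes, and Nlrc3 was called lower with LPS in WT cells, with −1.09 ± 0.08 (log2, SE). In Pim1-/- cells Nlrc3 fell as well, with −0.72 ± 0.08, which was not called. By the means LPS left 19.8% of its level in WT and 35.9% in Pim1-/- cells.

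**Figure D4:**
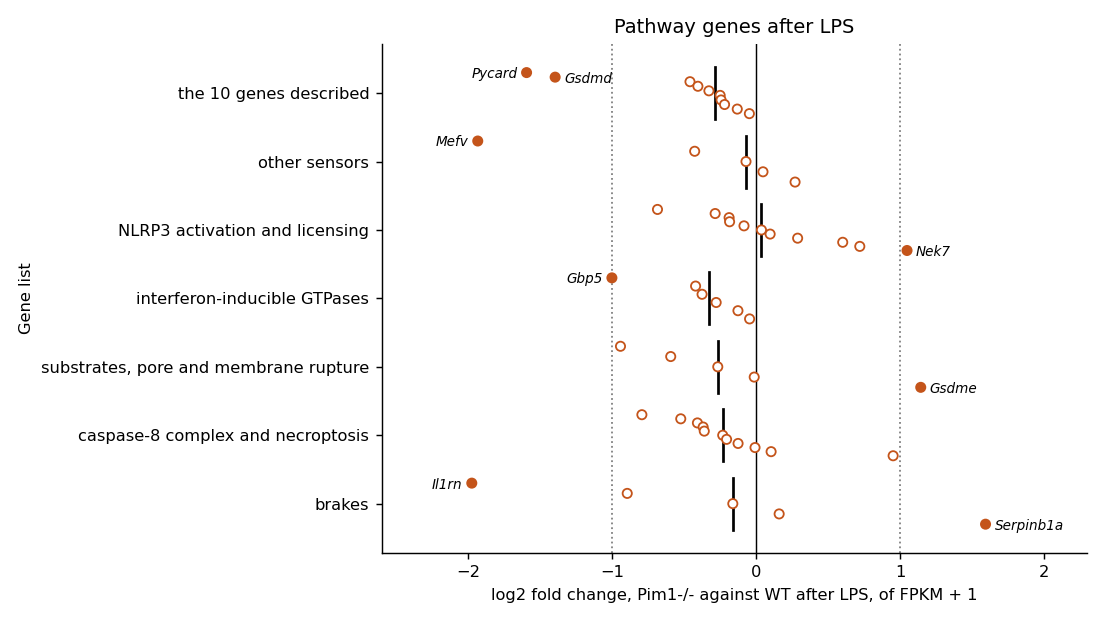
Log2 fold change of FPKM + 1 between Pim1-/- and WT cells after LPS for the 10 genes described (top) and for each list of pathway genes. Each circle is a gene, filled and named where it was called, the black bar is the list's median and dotted lines mark 2-fold. The medians lie between −0.33 and 0.04, Il1rn at −1.98 and Mefv at −1.93 are the lowest, and Serpinb1a at 1.59 is the highest.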

How the data were processed

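The 12 BMDM samples were sequenced as stranded mRNA libraries, and the authors mapped the reads with TopHat2 (2.0.13), after bcl2fastq 2.20.0.422 and cutadapt 1.18, and quantified them with Cuffdiff (2.2.1), according to the methods and the submitters' processing notes. The notes name the mouse build mm10, while the methods name rat rn5; neither source gives the annotation or the library normalization. The deposited values carry no unit and were read as FPKM from the use of Cuffdiff and column sums of 452511 to 849323. Those sums followed the groups. They were 467484 to 489710 in untreated WT and 452511 to 472138 in untreated Pim1-/- libraries. With LPS they were 837585 to 849323 in WT and 713307 to 743912 in Pim1-/- libraries. What part these sums have in the LPS and genotype differences was not tested.

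FPKM holds no counts. In genes with 1 transcript, low values clustered at multiples of a best-fitting step, 67.0% to 75.1% of them to within 0.1 of a step (a uniform spread gives 20%), which put 1 fragment per kilobase at 0.0176 to 0.0481 FPKM. Fragment numbers were estimated from that step and the longest GENCODE coding transcript.

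The 10581 of 23997 genes that reached 1 FPKM in 3 or more libraries entered a limma fit (3.58.1, R 4.3.3) of 4 group means to log2(FPKM + 1) with a trended variance, which leaves 8 residual degrees of freedom. The thresholds, more than 2-fold with p below 0.05 and an FDR (Benjamini-Hochberg) below 0.1, follow the methods and were applied in both directions. The fit was tested on simulated data for 6072 genes of higher level, where it called 100 of 100 genes changed 3-fold after LPS. Nlrp1b, Nlrc4 and Naip5 lie below that level. Differences in scale between libraries were not simulated. The noise was independent and had the spread within these groups, so recovery of 3-fold changes was close to given. In the same comparison 0 unchanged genes were called and 12 passed an FDR below 0.05 in limma. The members, gene lists and tests were chosen with earlier results of these data known. Genes named are the members, Pim1, Il1b and Il18, up to 4 called genes per list and comparison by size, the 3 genes most like Nlrp3 and Casp4, and markers. Naip2, Il1a, Ninj1, Ripk3 and some called genes beyond that number were named after their values were seen. 1 gene of the lists is not reported here. The file symbols for Gsdme and Irgb10 are Dfna5 and Gm12250. Promoters are from RefSeq. Alternatives were another pseudocount, other filters, median-ratio and quantile scaling, the compared groups alone, a replicate block, an FDR without a fold threshold, and leaving out each library. Python 3.11.15 with pandas 2.3.3, numpy 2.4.6 and matplotlib 3.10.9 made tables and figures.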

Additional observations from a re-analysis of the deposited data

Results flagged for a closer look

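The difference in LPS response between genotypes, tested with limma's interaction term, was past the threshold for 1 of the 10 members and 6 of the 43 pathway genes. Of the members it was Pycard, with −1.95 (log2, Pim1-/- minus WT), where 3 of 3 LPS-treated WT libraries lay above and 3 of 3 LPS-treated Pim1-/- libraries lay below all untreated libraries of their genotype. Of the pathway genes, Il1rn had −2.02, Mefv −1.84 and Mlkl −1.0003, lower in Pim1-/- cells, and Txnip had 1.79, Gbp3 1.31 and Gbp7 1.16, higher in Pim1-/- cells. Txnip fell with LPS in both genotypes and the other 5 rose in both. The added 1 weighs on the values of Mefv, Gbp3 and Gbp7, whose untreated levels are low. Groups of 3 libraries are too small for a search for outlying libraries.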

How the results depend on the processing

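Of 689 values of the members' log2 fold changes under the alternatives, 678 kept their direction and side of the threshold. Quantile normalization reversed Aim2 (0.21), Casp4 (0.036) and Casp8 (0.020) after LPS and Nlrc4 with LPS in Pim1-/- cells (0.0042), and moved the calls of Pycard and Casp8 as given above. Leaving out each library in turn gave −0.088 to 0.022 for Aim2 after LPS and −0.050 to 0.086 for the difference in response of Casp4. The cause was not tested.

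The number of members called was 2 after LPS, 0 untreated, 1 for the difference in response, 8 with LPS in WT and 7 in Pim1-/- cells, the same whichever library was left out. With an FDR below 0.05 as the sole criterion these were 9 after LPS, 10 untreated and 8 for the difference. Of the 43 pathway genes 32, 31 and 27 passed it, with 41 for LPS in WT and 38 in Pim1-/- cells. Of all genes 41.7% were lower and 35.7% higher after LPS, 42.0% and 32.7% untreated, and 33.3% and 29.6% for the difference. Most genes thus passed in each of these comparisons, and such counts do not set the pathway genes apart. For LPS in WT and in Pim1-/- cells the share of all genes at that FDR is not given here, so 41 and 38 have no background beside them. Under quantile normalization, a combination added after the data were seen, that criterion gave 6 members lower and 1 higher after LPS and 5 lower and 4 higher for the difference. A pseudocount of 0.1 gave 12 pathway genes for the difference in response.

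Libraries share replicate numbers across groups. Over the 5416 genes averaging 10 FPKM or more, the gene set chosen for this check, the correlations of same-numbered deviations were −0.05 to 0.23 between genotypes after LPS, 0.01 to 0.28 untreated, −0.07 to 0.09 for LPS in WT and 0.08 to 0.34 for LPS in Pim1-/- cells, so the numbers were not taken to pair the libraries. That outcome depends on the gene set. Of 3 other sets, tried after this one had been seen, genes averaging 20 FPKM or more gave the same outcome, but genes of at least 10 FPKM in every library gave 0.33 to 0.46 untreated and 0.43 to 0.68 for LPS in Pim1-/- cells, and genes of at least 5 FPKM in every library gave 0.27 to 0.45 and 0.42 to 0.67, all over 0.1, while in the other 2 comparisons at least 1 correlation stayed under it. With the replicate block the counts of members called were 2, 0, 1, 8 and 7 and those of pathway genes 6, 8, 6, 23 and 25, in the order given above, and no member's call changed. Depth limits Nlrp1b and Nlrc4, whose lowest values rest on about 25 and 102 fragments.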
